A study of Homo sapiens with 24 samples.

Results

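The 10 genes CA9, CA12, PDK1, PFKFB4, ANKRD37, NDRG1, EGLN3, BNIP3, KDM3A and P4HA1, known targets of the hypoxia-inducible factors (HIF), were followed in A549 and H1975 cells over culture time and under Pirfenidone. They were chosen by symbol, and every probe with such a symbol was taken, which gave 10 of the 25992 gene symbols on the array with 1 probe and 1 spot each. Both lines are human lung adenocarcinoma lines, and Pirfenidone is an antifibrotic drug. Cells received Pirfenidone at a labelled 0.75 mg/ml, or PBS in a volume to match, and were cultured for 6 h or for 24 h, which gave 8 groups of 3 samples and 1 one-color Agilent array per sample. The groups of a line therefore shared culture conditions and differed in agent and time, and the labels name no difference in oxygen supply. The methods describe the data in general as coming from independent experiments, but the labels do not say which samples came from separate cultures, and p-values measure only the spread between these samples.

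HIF is a pair of an oxygen-labile alpha subunit (HIF1A or EPAS1) and the stable partner ARNT. With oxygen at hand, prolyl hydroxylases of the EGLN family mark the alpha subunit for destruction through VHL, whereas in low oxygen it accumulates, enters the nucleus and binds short DNA motifs with the core ACGTG or GCGTG. Its targets move cells towards glycolysis, export acid, trim mitochondria and feed back on the sensor itself, and CA9 is a common tissue marker of poorly oxygenated tumor areas. Many of these genes also respond to other stress signals, so their mRNA is not a measure of oxygen.

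To show the motif that these genes are known for, the promoters listed by RefSeq (GRCh38.p14, 250 bases before the start site and the bases after it, 300 in all) were searched for ACGTG and GCGTG on both strands. The table held 9 of the 10 genes, and NDRG1 has no entry. Of these, 8 held at least 1 of the cores and 5 held ACGTG, against 52.4% and 24.9% of all 27305 genes in the table. EGLN3 held neither in this window. CA12, KDM3A and PFKFB4 held GCGTG without ACGTG. The stretches before the start site that hold ACGTG are printed because they are the letters that HIF can bind in principle. Each runs in the direction of the gene, with every match to either core on either strand in capitals. CACGTG reads the same on both strands and counts as 2 overlapping matches.
ANKRD37, plus strand, chr4:185396654-185396727: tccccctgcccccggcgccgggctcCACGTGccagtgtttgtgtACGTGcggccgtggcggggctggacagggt
BNIP3, minus strand, chr10:131981998-131982091: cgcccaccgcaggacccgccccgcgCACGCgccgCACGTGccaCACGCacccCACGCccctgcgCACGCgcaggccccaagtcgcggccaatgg
CA9, plus strand, chr9:35673885-35673927: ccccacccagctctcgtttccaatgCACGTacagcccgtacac
P4HA1, minus strand, chr10:73096923-73096977: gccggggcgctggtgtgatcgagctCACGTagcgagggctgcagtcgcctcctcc
PDK1, plus strand, chr2:172556048-172556089: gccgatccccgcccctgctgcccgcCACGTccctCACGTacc
BNIP3 carried the most matches, 6 within 94 bases, and ANKRD37 carried 3 within 74 bases. A match describes letters and not occupancy, which was not measured.

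The share of the 34127 probes that stood well above background ranged from 62.7% to 69.5% over the arrays. No probe was saturated, and the 10 genes were well above background on all 24 arrays. All 6 epithelial markers were measured on every array at 6 h in PBS, as were 4 of 8 markers of other cell types in A549 (PTPRC, CD68, COL1A1 and LUM) and 5 in H1975 (PTPRC, CD68, COL1A1, PECAM1 and VWF). The T cell marker CD3E and the fibroblast marker DCN were well above background on none of these arrays. The arrays lay on 7 slides and their files carried 4 different days, and what such a day marks is not stated. A549 was spread over file days 1 to 3 and H1975 over file days 1, 3 and 4, with 1 array of each group of a line on each of its days. Differences were therefore also taken between arrays of 1 day and in a fit with file day within line as a block. On file day 1 the 24 h pair of A549, replicate 3, stood apart. The mean log2 signal of 10 mitosis genes was 0.84 in its PBS array against 2.44 and 2.48 in replicates 1 and 2, and 2.47 in its Pirfenidone array against 2.17 and 1.5. The mean of 10 stress genes of the ATF4 program was 2.48 in its PBS array against 1.75 and 1.72, and 1.66 in its Pirfenidone array against 1.84 and 2.11. On both lists the difference between drug and PBS thus had the opposite sign in this pair to that in the other 2 pairs. Whether the labels of its 2 arrays are exchanged was not tested. An exchange would turn the sign of its drug differences and alter the A549 culture time differences in PBS and in Pirfenidone. The labels were kept, and most of the main A549 results at 24 h are given with and without this pair.

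Signals are log2 values relative to the 75th percentile of the array. They rank samples for 1 gene, not genes against each other. In H1975 each of the 10 genes had its lowest group mean in PBS at 6 h, whereas in A549 no common order of the groups was seen.

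**Figure D1:**
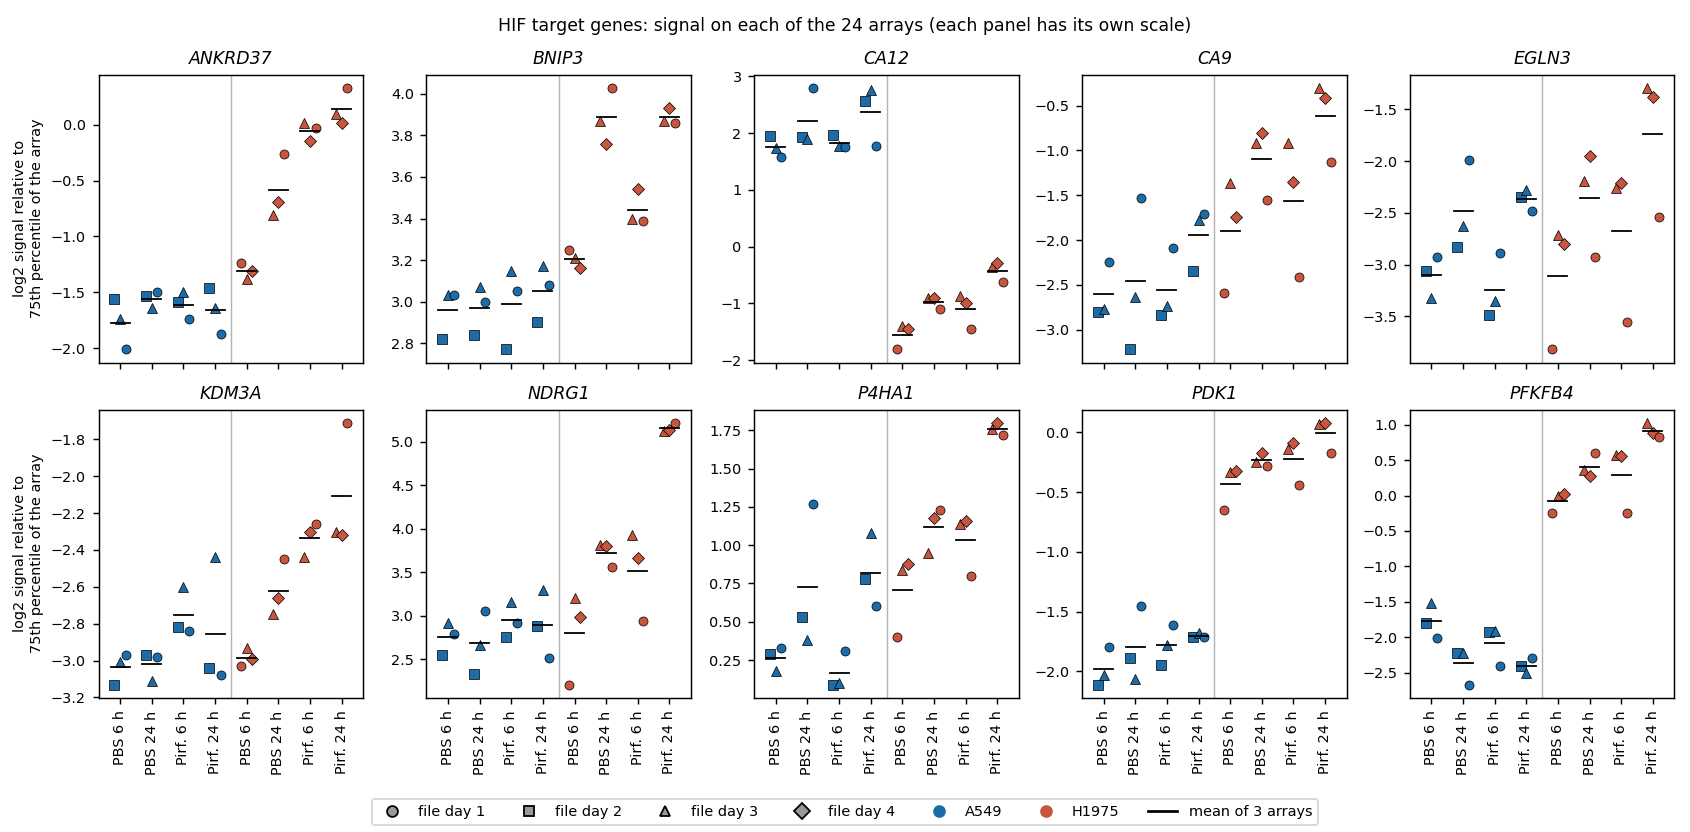
Signal of each gene (y axis, log2 relative to the 75th percentile of the array, own scale per panel) in the 8 groups (x axis, A549 left and H1975 right of the grey line). Points are single arrays, their shape gives the file day and bars are means of 3 arrays; the 3 NDRG1 values of H1975 with Pirfenidone at 24 h, 5.12 to 5.22, lie above the other 21 arrays.

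The first question was whether these genes moved with culture time alone, from 6 h to 24 h in PBS. In H1975 all 10 had a higher mean at 24 h, with a median log2 difference of 0.63, while the median over all 23827 probes tested was 0.04 and 57.5% of the probes were above 0. A gene or probe was said to pass where it changed at least 2-fold and its p from limma, adjusted by Benjamini-Hochberg over all probes, was at most 0.05. By this rule 0 of the 10 passed in H1975, beside 0.315% of all probes. All 3 arrays at 24 h lay above all 3 at 6 h for 8 of the 10 genes, against 10.7% of all probes, and all 3 differences within a file day were above 0 for 10 of 10, against 30% of all probes.

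Among the genes of mitochondria and stress, BNIP3, a mitochondrial receptor for mitophagy, had H1975 log2 signals of 3.25, 3.21 and 3.16 at 6 h and 3.87, 3.76 and 4.03 at 24 h in PBS. ANKRD37, an ankyrin repeat protein, had -1.24, -1.38 and -1.31 at 6 h and -0.81, -0.69 and -0.26 at 24 h. For neither gene did the times overlap, and the 6 h arrays lay close together. BNIP3 differed by 0.68 ± 0.11 (SE, limma, adjusted p = 0.00564) and ANKRD37 by 0.72 ± 0.15 (adjusted p = 0.0239). Without the 2-fold limit both passed, 2 of the 10 genes beside 0.499% of all probes in this direction. NDRG1, a stress-induced gene named for its repression by N-myc, had 2.21, 3.20 and 2.99 at 6 h against 3.81, 3.80 and 3.56 at 24 h. Its times did not overlap either, but its 6 h arrays were spread, and the log2 difference of 0.92 ± 0.27 had an adjusted p of 0.131 (limma).

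The carbonic anhydrase CA9, which acidifies the outside of the cell, had -2.59, -1.36 and -1.74 at 6 h and -0.92, -0.81 and -1.55 at 24 h in H1975 in PBS. EGLN3, the HIF-inducible prolyl hydroxylase of the sensor, had -3.82, -2.71 and -2.80 at 6 h and -2.19, -1.95 and -2.93 at 24 h. For both genes the times overlapped, and the lowest array of each time was that of file day 1. Within a file day the culture time differences were 1.04, 0.44 and 0.93 for CA9 and 0.89, 0.53 and 0.85 for EGLN3 (days 1, 3 and 4). With file day as a block the adjusted p was 0.0234 for CA9 and 0.0108 for EGLN3, against 0.55 and 0.531 without it (limma). By that fit and without the 2-fold limit, 5 of the 10 genes passed as higher (CA9, EGLN3, BNIP3, ANKRD37 and NDRG1), beside 5.15% of all probes.

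The second membrane carbonic anhydrase, CA12, differed by 0.58 ± 0.24 over culture time in H1975 in PBS (limma, adjusted p = 0.373). PFKFB4, which sets the level of a strong activator of glycolysis, differed by 0.49 ± 0.20, and PDK1, the kinase that holds pyruvate back from mitochondria, by 0.20 ± 0.15. The matrix enzyme P4HA1, the catalytic subunit of collagen prolyl hydroxylase, gave 0.42 ± 0.19 and the histone demethylase KDM3A 0.37 ± 0.16. None of these 5 passed with or without file day as a block, and all 5 had 24 h arrays that lay above every 6 h array.

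In A549 in PBS the same comparison gave a median of 0.16, with 8 of 10 genes above 0 and 54.3% of all probes above 0. Here 0 of 10 passed, beside 0.109% of all probes. Without the file day 1 pair at 24 h the median was 0, so this median rested on PBS replicate 3. Within file days 1, 2 and 3 it was 0.43, 0.02 and 0.07. ANKRD37, EGLN3 and P4HA1 were above 0 on each of these days and PFKFB4 was below 0. BNIP3 had log2 signals of 2.82, 3.03 and 3.03 at 6 h and 2.84, 3.07 and 3 at 24 h, which overlapped throughout. EGLN3 and P4HA1 had all 24 h arrays above all 6 h arrays, with log2 differences of 0.62 and 0.46. With file day as a block their adjusted p-values were 0.0666 and 0.217 (limma). Their rise in H1975 differed from that in A549 by only 0.14 and -0.04. Without the file day 1 pair at 24 h the A549 values were 0.37 and 0.18. PFKFB4 went the other way, from -1.80, -1.52 and -2.01 at 6 h to -2.22, -2.22 and -2.67 at 24 h. The log2 difference was -0.59 ± 0.20 (limma, adjusted p = 0.396), and -0.44 without the file day 1 pair at 24 h.

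**Figure D2:**
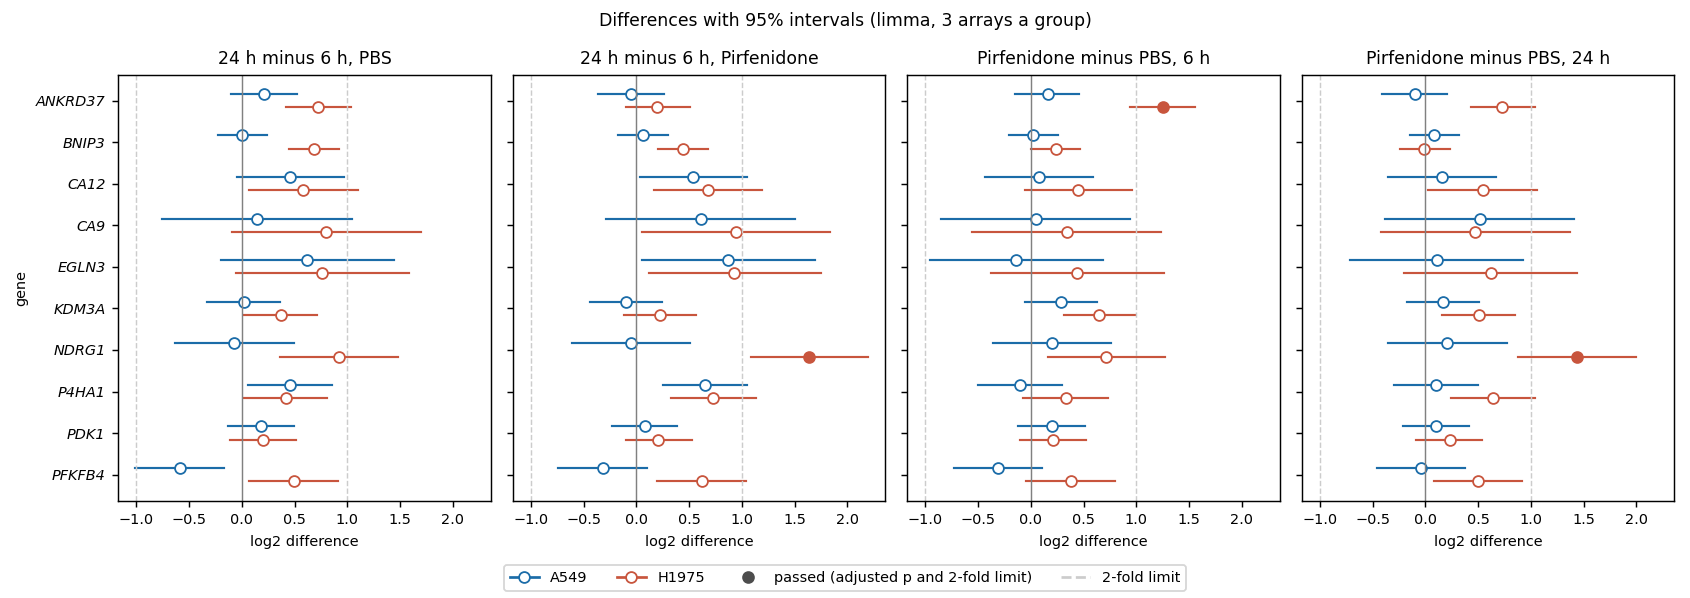
Log2 differences of the 10 genes (y axis) for culture time in PBS and in Pirfenidone and for the drug at 6 h and 24 h (panels, x axis log2 difference), with 95% intervals from limma for A549 and H1975. Filled points passed the adjusted p and the 2-fold limit, which are ANKRD37 for the drug at 6 h (1.25) and NDRG1 for the drug at 24 h (1.44) and culture time in Pirfenidone (1.64), all in H1975.

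Culture time was also compared within the Pirfenidone samples. In H1975 all 10 genes were again higher at 24 h, with a median of 0.65 against 0.01 over all probes. Of the 10, 9 had all 3 differences within a file day above 0, against 30.1% of all probes. NDRG1 rose from 3.93, 3.67 and 2.94 at 6 h to 5.12, 5.14 and 5.22 at 24 h, without overlap and with close 24 h arrays. The log2 difference of 1.64 ± 0.27, a 3.13-fold increase, had an adjusted p of 0.00153 (limma), and the 3 differences within a file day were 2.28, 1.19 and 1.46. It was the single gene of the 10 to pass, beside 2.38% of all probes. Without the 2-fold limit BNIP3 (0.44, adjusted p = 0.0221) and P4HA1 (0.73, adjusted p = 0.0255) passed as well, 3 of 10 beside 3.71% of all probes in this direction. With file day as a block 6 of 10 passed without the 2-fold limit, beside 13.2% of all probes, and CA9, EGLN3 and PFKFB4 joined the former 3. In the same comparison 8 of 10 mitosis genes passed as lower (median -1.26), beside 1.08% of all probes. Of 10 ATF4 genes 2 passed as higher (median 0.02), beside 1.3% of all probes. The part of both lists in the NDRG1 value was not tested. In A549 the median was 0.07, with 6 of 10 genes above 0, and 0 of 10 passed beside 0.256% of all probes. Without the file day 1 pair at 24 h the median was 0.11, with 9 of 10 above 0. Within file days 1, 2 and 3 the A549 median was 0.03, 0.19 and 0.15. CA9, CA12, EGLN3, BNIP3 and P4HA1 were above 0 on each of these days. EGLN3 had the highest A549 value, 0.87 ± 0.39, with an adjusted p of 0.456 and of 0.00566 with file day as a block (limma), where it was 1 of 10 to pass without the 2-fold limit, beside 2.73% of all probes as higher. Without the pair EGLN3 was at 0.93 (limma, adjusted p = 0.311, without the block), and the values for CA12 and P4HA1 were 0.83 and 0.76, with adjusted p-values of 0.0192 and 0.017 (limma) but under the 2-fold limit.

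The main question of the study was the response to the drug. At 6 h in H1975 all 10 genes had a higher mean with Pirfenidone than with PBS, with a median log2 difference of 0.41, beside a median of 0.05 and a share above 0 of 59% over all probes. ANKRD37 rose from -1.24, -1.38 and -1.31 in PBS to 0.01, -0.15 and -0.03 with Pirfenidone. Both groups were tight and far apart, and the log2 difference of 1.25 ± 0.15, a 2.38-fold increase, had an adjusted p of 0.000178 (limma). It was 1.21, 1.39 and 1.15 within file days 1, 3 and 4. ANKRD37 was the single gene of the 10 to pass, beside 0.491% of all probes.

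KDM3A had the next lowest adjusted p at 6 h, with -3.03, -2.93 and -2.99 in PBS and -2.44, -2.30 and -2.26 with the drug in H1975. The groups did not overlap, and the log2 difference of 0.65 ± 0.16 had an adjusted p of 0.057, or of 0.0146 with file day as a block (limma). Without the 2-fold limit ANKRD37 alone passed, beside 1.04% of all probes in this direction, and with file day as a block ANKRD37 and KDM3A did, 2 of 10 beside 4.49%. NDRG1 had 2.21, 3.20 and 2.99 in PBS and 3.93, 3.67 and 2.94 with the drug. These arrays overlapped across file days, while the differences within a day were close, at 0.73, 0.73 and 0.69. All 3 differences within a day were above 0 for 10 of 10 genes, against 31.8% of all probes, whereas the arrays of both groups were fully apart for 3 of 10 (ANKRD37, BNIP3 and KDM3A), against 10.6%. The 6 h drug comparison and the culture time comparison in PBS both start from the same 3 H1975 PBS arrays at 6 h, of which replicate 1 had the lowest mean over the 10 genes (-0.75 against -0.29 and -0.36). Without that array the medians were 0.27 for the drug and 0.43 for culture time.

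At 24 h in H1975, 9 of the 10 genes had a higher mean with Pirfenidone, with a median of 0.53 against 0.02 over all probes, and 6 of 10 had all drug arrays above all PBS arrays, against 16.3% of all probes. NDRG1 rose from 3.81, 3.80 and 3.56 in PBS to 5.12, 5.14 and 5.22 with the drug. The groups lay far apart, and the log2 difference of 1.44 ± 0.27, a 2.71-fold increase, had an adjusted p of 0.00574 (limma). Within file days 1, 3 and 4 it was 1.66, 1.31 and 1.34. NDRG1 was the single gene of the 10 to pass, beside 1.89% of all probes. This value and the NDRG1 rise over culture time in Pirfenidone rest on the same 3 Pirfenidone arrays at 24 h.

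ANKRD37 stayed above PBS at 24 h, with -0.81, -0.69 and -0.26 in PBS and 0.09, 0.01 and 0.33 with the drug. The groups did not overlap, and the log2 difference of 0.73 ± 0.15 had an adjusted p of 0.00861 (limma) but lay under the 2-fold limit. Without that limit 2 of 10 passed, beside 2.91% of all probes in this direction. P4HA1 had 0.95, 1.18 and 1.23 in PBS and 1.76, 1.80 and 1.72 with the drug, and KDM3A had -2.75, -2.66 and -2.45 against -2.30, -2.32 and -1.71. Neither gene overlapped, with log2 differences of 0.64 ± 0.19 (adjusted p = 0.0526) and 0.51 ± 0.16 (adjusted p = 0.0706, limma). With file day as a block ANKRD37, NDRG1, EGLN3, KDM3A and P4HA1 passed without the 2-fold limit, 5 of 10 beside 11.7% of all probes. BNIP3 was the exception, with 3.87, 3.76 and 4.03 in PBS and 3.87, 3.93 and 3.86 with the drug. Its groups overlapped, and the 95% interval of its log2 difference ran from -0.24 to 0.23.

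For the glycolytic and acid-handling genes at 24 h in H1975, the drug differences were 0.50 ± 0.20 for PFKFB4, 0.23 ± 0.15 for PDK1, 0.55 ± 0.24 for CA12 and 0.47 ± 0.43 for CA9. None of these passed with or without file day as a block (limma), although all 3 differences within a day were above 0 for each. At 24 h this held for 9 of 10 genes, against 34.6% of all probes.

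**Figure D3:**
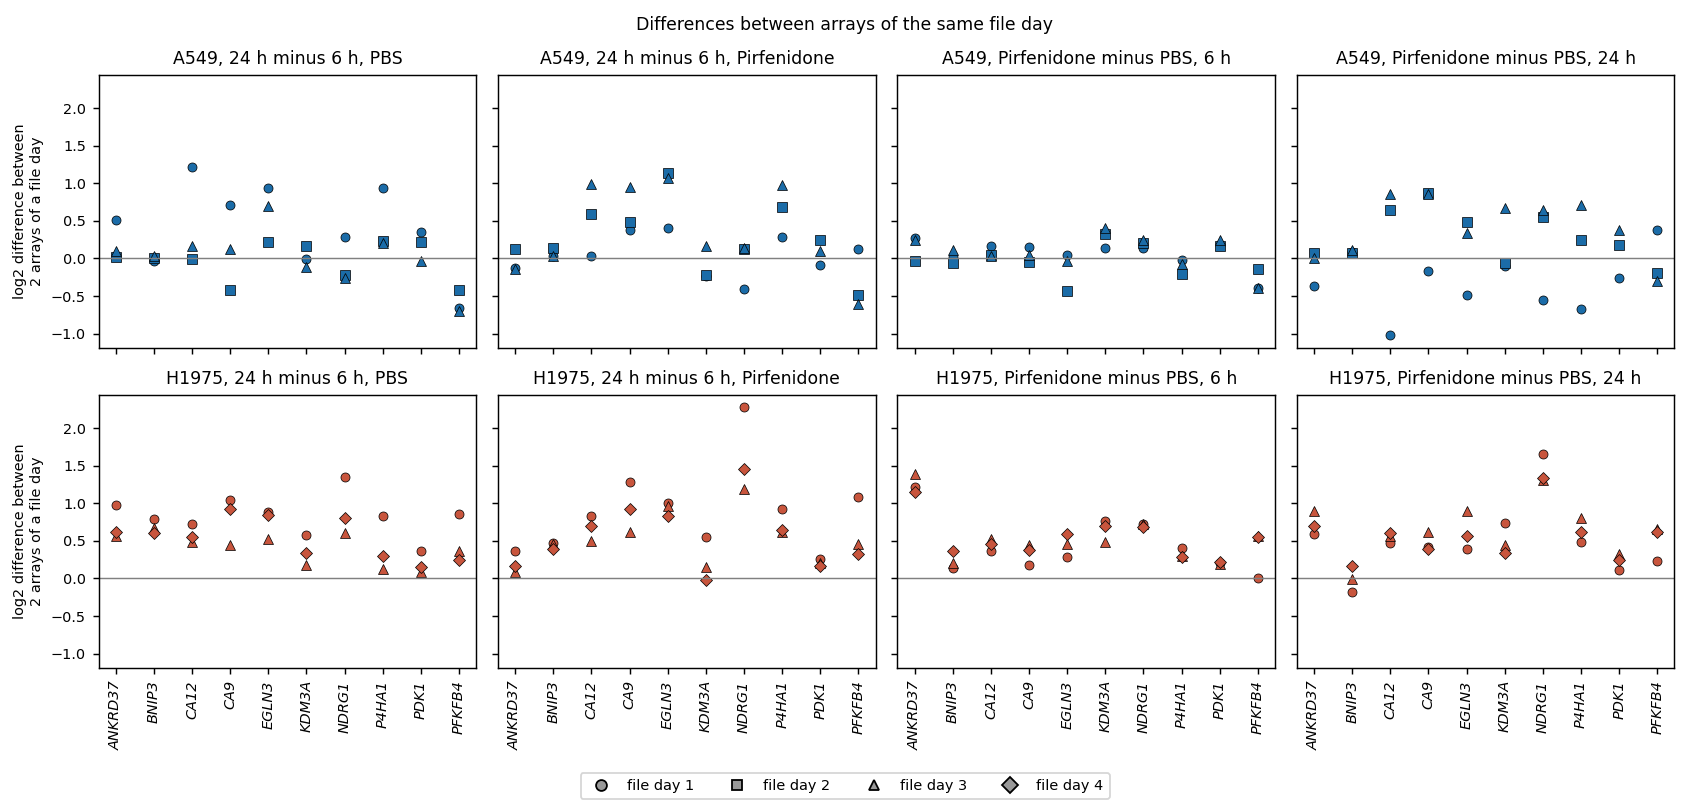
Log2 differences between 2 arrays of the same line and file day (y axis) for the 10 genes (x axis), A549 in the upper and H1975 in the lower row, with 1 panel for each comparison. The 30 points of H1975 for culture time in PBS and the 30 for the drug at 6 h are all above 0, whereas the A549 points of file day 1 for the drug at 24 h run from -1.02 to 0.38.

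In A549 no drug difference of these genes passed. At 6 h the median was 0.06 and 7 of 10 genes were above 0 against 47% of all probes. At 24 h it was 0.11 with 8 of 10 above 0 against 41% of all probes. Within file days 1, 2 and 3 the 6 h median was 0.14, -0.04 and 0.08. CA12, PDK1, NDRG1 and KDM3A were above 0 at 6 h on each of these days, and PFKFB4 and P4HA1 were below 0. None of the 10 passed at either time, beside 0.176% of all probes at 6 h and 0.0126% at 24 h. With file day as a block and without the 2-fold limit 0 of 10 passed as higher, beside 0.911% and 0.0126%. ANKRD37 had -1.56, -1.74 and -2.01 in PBS and -1.59, -1.50 and -1.74 with the drug at 6 h, which overlapped, and the 95% interval of its log2 difference ran from -0.15 to 0.46. NDRG1 at 24 h had 2.33, 2.66 and 3.06 in PBS and 2.88, 3.30 and 2.52 with the drug, with an interval from -0.35 to 0.77. On file day 1 the drug differences at 24 h had a median of -0.32, against 0.22 and 0.51 on file days 2 and 3. The median without the file day 1 pair was 0.36, with NDRG1 at 0.59, CA9 at 0.86 and CA12 at 0.75. The lowest adjusted p of the 10 genes was then 0.182, for CA12 (limma, without the block).

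Whether both lines differed in their response was tested directly. The drug difference of ANKRD37 at 6 h was larger in H1975 than in A549 by 1.09 ± 0.21 on the log2 scale, with an adjusted p of 0.0676, and of 0.00714 with file day as a block (limma). For NDRG1 at 24 h the lines differed by 1.22 ± 0.38 (adjusted p = 0.18, or 0.0368 with the block). Without the A549 pair of file day 1 at 24 h this fell to 0.84 (adjusted p = 0.736, limma, without the block). ANKRD37 at 24 h then went from 0.83 to 0.70 (adjusted p = 0.423, limma, without the block and the pair). The median line difference of the 10 genes for the drug at 24 h fell from 0.45 to 0.18 without the pair. The line difference of culture time in PBS was 0.68 ± 0.16 for BNIP3 (adjusted p = 0.314, or 0.0103 with the block). Without the pair it was 0.70 (adjusted p = 0.453, limma, without the block). None of the 10 passed in these 3 line comparisons without the block, beside 0.0336% of all probes for the drug at 6 h, 0.193% at 24 h and 0.0252% for culture time. With the block and no 2-fold limit the counts were 1 of 10 at 6 h (0.344% of all probes as higher), 2 of 10 at 24 h (ANKRD37 and NDRG1, 3.33%) and 1 of 10 for culture time (0.294%). Nor did the drug difference change between 6 h and 24 h by an amount that passed, with 0 of 10 in either line beside 0.0294% of all probes in A549 and 0.0042% in H1975. In H1975 this change was -0.52 ± 0.21 for ANKRD37 and 0.72 ± 0.38 for NDRG1, with adjusted p-values of 0.73 and 0.916 (limma).

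The lines also differed in the levels of these genes in PBS, in both directions. At 6 h 3 of the 10 passed, beside 32.4% of all probes, so this share was no larger than the background. CA12 (probe at chr15:63616499-63616558, minus strand, hg19) was lower in H1975, at -1.81, -1.39 and -1.45 against 1.94, 1.74 and 1.58 in A549. PDK1 (chr2:173463273-173463332, plus strand, hg19) was higher in H1975, at -0.65, -0.33 and -0.32 against -2.11, -2.03 and -1.80, as was PFKFB4 (chr3:48555454-48555513, minus strand, hg19), at -0.25, 0.00 and 0.02 against -1.80, -1.52 and -2.01. None of these overlapped. CA12 was 9.88-fold lower (adjusted p = 8.19e-10), PDK1 2.92-fold higher (adjusted p = 3.61e-08) and PFKFB4 3.24-fold higher (adjusted p = 6.12e-07, limma).

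At 24 h in PBS 5 of 10 passed between the lines, beside 32.9% of all probes. CA12 was 9.05-fold lower in H1975, PDK1 2.96-fold and PFKFB4 6.87-fold higher, and CA9 (2.59-fold, adjusted p = 0.00974) and NDRG1 (2.05-fold, adjusted p = 0.0025, limma) joined them. The CA9 difference depended on the file day. On file day 1 CA9 had -1.55 in H1975 and -1.53 in A549, while on file day 3 it had -0.92 and -2.63. The PDK1, PFKFB4 and CA12 differences kept their direction on both days. Line and file day were partly mixed, since file day 2 held A549 alone and file day 4 held H1975 alone. CA9 did not pass without A549 PBS replicate 1 at 24 h (0.99, adjusted p = 0.0689, limma), and NDRG1 fell under the 2-fold limit without that array or without H1975 PBS replicate 1 (0.86 and 0.99), and lay at that limit without replicate 2. Without the A549 file day 1 pair the log2 differences were 1.84 for CA9, 1.23 for NDRG1, 1.74 for PDK1, 2.63 for PFKFB4 and -2.88 for CA12. Their adjusted p-values were at most 0.0016 (limma).

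The 10 genes varied together in H1975 more than in A549. Over the 12 arrays of H1975 all 45 pairs of genes had a Pearson r above 0, with a median of 0.76 (0.31 to 0.97). Over the 12 arrays of A549 33 of 45 were above 0, with a median of 0.28 (-0.87 to 0.94). These arrays share groups, slides and file days, so the values are a description. The genes whose 8 group means were most like the mean profile of the 10 were ALDH6A1 (r = 0.995), a mitochondrial enzyme of valine breakdown, SH3BGR (0.993), LDHD (0.990), which oxidizes the mirror form of lactate, GPR98 (0.988) and LOC100130093 (0.988). These were the highest r over all tested genes, each by its brightest probe, against the mean of the standardized profiles, and are a description only.

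Of the factors and sensors of the pathway, 13 genes, none passed over culture time or with the drug in either line. In these comparisons 0.0126% to 2.38% of all probes passed. The median of the 13 in H1975 was 0.24 with the drug at 6 h, 0.27 at 24 h and 0.1 over culture time in PBS. In A549 these medians were 0.01, -0.07 and 0.08. Over culture time in Pirfenidone the median was 0.18 in H1975 and -0.1 in A549. HIF1A differed by 0.23 ± 0.13 at 6 h and 0.27 ± 0.13 at 24 h with the drug in H1975 (adjusted p = 0.615 and 0.239, limma) and by -0.05 ± 0.13 over culture time in PBS. EPAS1, which encodes the other alpha subunit, differed by 0.57 ± 0.20 and 0.58 ± 0.20 with the drug and by 0.55 ± 0.20 over culture time in H1975. Its arrays did not overlap in any of these, with adjusted p-values of 0.239, 0.0942 and 0.276 (limma). HIF is regulated mainly as a protein, which these arrays do not measure.

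Of 42 further HIF targets 41 were tested, and 2 passed as higher with the drug at 6 h in H1975, beside 0.399% of all probes. DDIT4, an inhibitor of mTOR signaling, rose by 2.30 ± 0.38 (adjusted p = 0.00382), and the glucose transporter SLC2A3 by 1.03 ± 0.24 (adjusted p = 0.0376, limma). At 24 h DDIT4 (1.67 ± 0.38, adjusted p = 0.0171) and the secreted factor STC2 (1.29 ± 0.27, adjusted p = 0.0107, limma) passed. These 2 of 41 at 24 h stood beside 0.89% of all probes as higher. The medians of the 41 were 0.19 and 0.39, with 33 and 37 above 0. As shares these were 80.5% and 90.2%, beside 59% and 52.9% of all probes, whose medians were 0.05 and 0.02. The hypoxia genes VEGFA (0.47 and 0.82), ADM (0.11 and 0.82) and SLC2A1 (0.21 and 0.61), which encode an angiogenic factor, a vasodilator peptide and the main glucose transporter, did not pass at 6 h or 24 h. Over culture time in H1975 in PBS 0 of 41 passed, with a median of 0.21 and 32 above 0. This share above 0 was 78%, beside 57.5% of all probes. A549 in PBS was alike, with 0 of 41 passed, a median of 0.18 and 34 above 0. Its share above 0 was 82.9%, beside 54.3% of all probes. Within its file days 1, 2 and 3 there were 32, 27 and 29 above 0. In H1975 in Pirfenidone the lipoprotein receptor VLDLR rose by 1.09 ± 0.30 (adjusted p = 0.0346, limma). It was 1 of 41 to pass as higher, beside 1.3% of all probes. With the drug in A549 the medians of the 41 were 0 at 6 h and 0 at 24 h. At these times 20 and 24 of 41 were above 0, beside 47% and 41% of all probes. Within file days 1, 2 and 3 at 24 h there were 12, 26 and 28 above 0. The one target to pass in A549 was STC2, which fell by 1.22 ± 0.27 over culture time in Pirfenidone (adjusted p = 0.04, limma). As lower, 0.172% of all probes passed there.

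**Figure D4:**
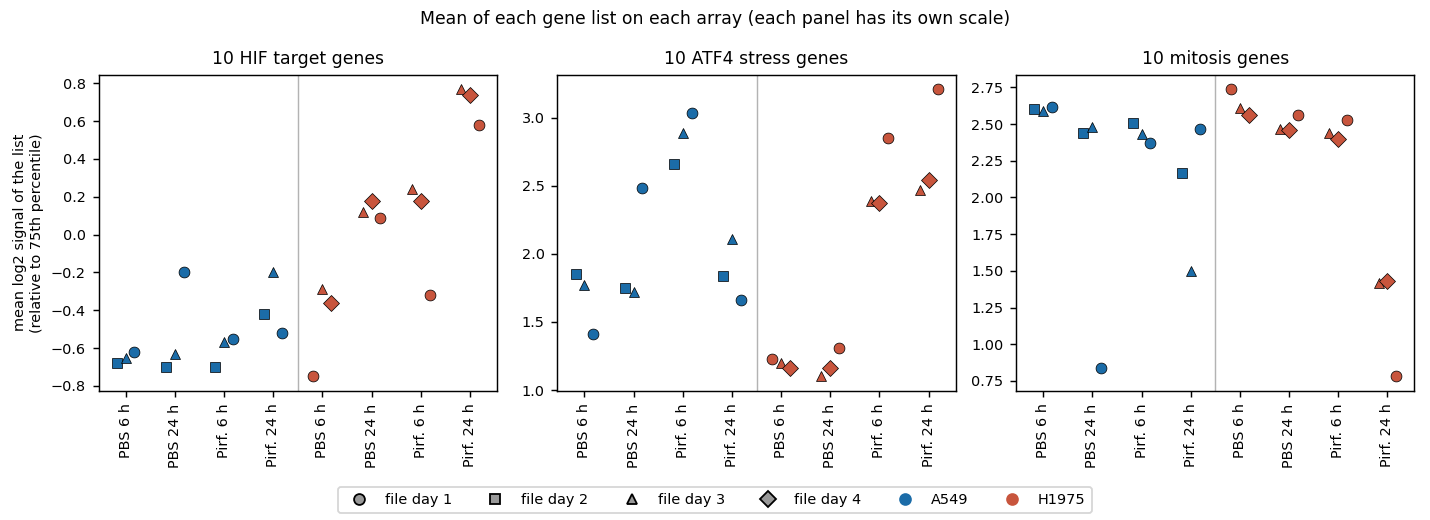
Mean log2 signal of the 10 HIF target genes, of 10 stress genes of the ATF4 program and of 10 mitosis genes (panels, y axis, relative to the 75th percentile of the array) on each array of the 8 groups (x axis), with point shape for the file day and color for the line. The HIF target means of H1975 run from -0.75 in PBS at 6 h to 0.77 with Pirfenidone at 24 h, and the mitosis mean of A549 in PBS at 24 h on file day 1, 0.84, lies apart from 2.44 and 2.48.

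Other programs moved beside these genes. DDIT4, STC2, VLDLR and NDRG1 are known to respond also to the stress factor ATF4. Of 10 genes of the ATF4 program, with VLDLR on both lists, 6 passed as higher with the drug at 6 h in H1975 and 8 at 24 h. In A549 3 did at 6 h. The shares of all probes as higher were 0.399%, 0.89% and 0.118%. CHAC1, a glutathione-degrading ATF4 target, rose in H1975 by 3.2 ± 0.36 at 6 h (adjusted p = 0.000139) and 2.77 ± 0.36 at 24 h (adjusted p = 0.000378, limma). Its A549 value at 6 h was 2.29 ± 0.36 (limma, adjusted p = 0.00619). The largest others were the stress factor DDIT3 (2.08) and SESN2 (1.86) at 6 h and the serine and asparagine synthesis enzymes PHGDH (1.93) and ASNS (1.89) at 24 h in H1975, and DDIT3 (2.19) and TRIB3 (1.24) at 6 h in A549. The mean of this list ranged from 1.16 to 1.23 in H1975 in PBS at 6 h and from 2.37 to 2.85 with the drug. After 24 h these ranges were 1.1 to 1.31 and 2.47 to 3.21. All 10 mitosis genes fell with the drug at 24 h in H1975, with means of 2.46 to 2.56 in PBS and 0.78 to 1.43 with Pirfenidone, led by the kinase AURKA (-1.38), the survivin gene BIRC5 (-1.37) and the kinase PLK1 (-1.36). All 10 passed as lower, beside 1% of all probes. At 6 h 0 of these 10 passed there, beside 0.0923% of all probes as lower. With the drug in A549 at 24 h 0 of 10 ATF4 genes and 0 of 10 mitosis genes passed, with medians of -0.08 and 0.13. In that comparison 0.0126% of all probes passed. Within file days 1, 2 and 3 the ATF4 medians were -0.88, 0.1 and 0.44, and the mitosis medians 1.6, -0.26 and -0.96. Over culture time in H1975 in PBS 0 of 10 ATF4 genes and 0 of 10 mitosis genes passed, with medians of -0.02 and -0.16. There 0.315% of all probes passed. The part of these programs in the values of the 10 HIF targets was not tested. As the samples are bulk RNA, a change in all cells and a change in the share of responding cells cannot be told apart.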

How the data were processed

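Total RNA (RNeasy) of 24 samples was labelled with Cy3 and hybridized to one-color Agilent arrays, design coordinates hg19. The deposited scanner files hold spot intensity, background-subtracted by the authors with Feature Extraction version 11.5.1.1. The authors also deposited processed log2 values, centered on each probe's median, used as an alternative.

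For the main values each processed signal was put on the log2 scale and the 75th percentile of its array subtracted. Spots that the scanner software marked as outliers were dropped, and repeated spots of a probe averaged. The 23827 of 34127 probes well above background on all 3 arrays of a group were tested in limma version 3.58.1 (R version 4.3.3) in a joint fit over the 8 groups (residual degrees of freedom, 16), and Benjamini-Hochberg adjusted p-values cover all of them. Fold changes, SE and 95% intervals come from this fit. The number of arrays limits precision. The steps were tested on simulated data. The methods' family-wise threshold cannot be reached with 3 arrays against 3.

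The 10 genes and the other lists were chosen with earlier results of these data known. Every one of the 10 is named. From other lists, genes that passed were named, at most the 3 largest per direction, and HIF1A, EPAS1, VEGFA, ADM, SLC2A1 and CHAC1 always. The blocks for slide as a random effect and for file day across lines, and file day with no fold limit, were chosen after seeing the data. Deviations from the group means of same-numbered replicates had an r of -0.1 to 0.7 in A549 and of -0.68 to 0.72 in H1975. Since not every pair was above 0.1, numbers were not taken to pair the samples. By file day r was 0.24 to 0.82 in H1975 and -0.1 to 0.7 in A549. In A549 file day and replicate number split the samples alike. File day thus missed this mark in A549 as well, and was used there all the same.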

Additional observations from a re-analysis of the deposited data

Results flagged for a closer look

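In 3 cases every difference within a file day went one way in A549 and the other way in H1975, over 3 pairs in each line. PFKFB4 differed between the lines by 1.08 ± 0.28 (SE) on the log2 scale in its culture time change in PBS (limma, adjusted p = 0.583) and by 0.69 ± 0.28 in its drug change at 6 h (adjusted p = 1). P4HA1 differed by 0.43 ± 0.27 in its drug change at 6 h (limma, adjusted p = 1). Without the A549 file day 1 pair at 24 h the PFKFB4 value for culture time was 0.93 (limma, adjusted p = 0.946). Some of the single differences for the drug at 6 h were close to 0. PFKFB4 had -0.4, -0.14 and -0.4 in A549 and 0.01, 0.57 and 0.55 in H1975. P4HA1 had -0.02, -0.21 and -0.08 in A549 and 0.4, 0.3 and 0.28 in H1975. None of the 3 cases passed the adjusted test of the difference.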

How the results depend on the processing

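The direction of the 10 genes in H1975 varied little. Over culture time in PBS 10 of 10 were above 0 under all 17 other alternatives and each array left out (median 0.43 to 0.67), for the drug at 6 h 10 of 10 under the alternatives and 9 or 10 with an array left out (median 0.25 to 0.64), and at 24 h 9 or 10 (0.48 to 0.64). Of 3680 single values under alternatives none that passed changed sign, and 127 that passed under neither setting did, with sizes of at most 0.39 before and 0.34 after the change, such as CA9 over culture time in A549 in PBS (0.14, or -0.32 without the file day 1 pair). The cause of the changes in calls below was not tested unless the setting itself gives it.

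Counts of the 10 genes that passed changed as follows. For culture time in H1975 in PBS (0) it was 2 with no fold limit, 1 with slide as a block and 5 with file day as a block and no fold limit. For culture time in H1975 in Pirfenidone (1) it was 3 with no fold limit and 6 with file day as a block and no fold limit. It was 0 under Holm adjustment, with only the arrays compared (NDRG1, limma, adjusted p = 0.0588, fewer samples in the fit) or by a t-test paired by file day after Benjamini-Hochberg. For culture time in A549 in Pirfenidone (0) it was 1 with file day as a block and no fold limit. For the drug in H1975 at 24 h (1) it was 2 with no fold limit, 5 with file day as a block and no fold limit, and 0 under Holm or by the t-test. For the drug at 6 h (1) it was 2 with file day as a block and no fold limit, and 0 with only the arrays compared (ANKRD37, adjusted p = 0.0678) or by the t-test. The paper names paired t-tests, but the pairing by file day was chosen here. With 3 differences per gene this t-test can hardly pass after adjustment over all probes, so its counts of 0 decide little. Unadjusted, at p of at most 0.05 and with the 2-fold limit, this t-test called the same 3 values as the main test in H1975. For the line difference of the drug at 6 h (0) it was 1 (ANKRD37) with the replicate block, with slide or file day as a block, with slide as a random block, or with file day shared by both lines, and at 24 h (0) it was 1 (NDRG1) with file day or slide as a random block and 2 with file day as a block and no fold limit. For the line difference of culture time (0) it was 1 with file day as a block and no fold limit. For the line difference in PBS at 6 h (3) it was 4 with no fold limit and 7 with file day as a block and no fold limit. At 24 h (5) it was 3 under Holm, 6 with quantile normalization, 8 with no fold limit with or without file day as a block, and 3 to 5 with an array left out, the lowest without A549 PBS 24 h replicate 1. The replicate block changed no other count.

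Signals measure relative mRNA on 3 arrays a group. KDM3A changed sign over culture time in Pirfenidone in H1975 under normexp background correction (-0.02, or 0.22 without it).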
